A study of Mus musculus with 30 samples.

Results

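The endosomal Toll-like receptors and their immediate signalling partners were examined in spleen and lymph node of mice that were wild type (WT, of the FVB strain according to the sample titles) or lacked a peptidylarginine deiminase (Pad2-/- or Pad4-/-). The genes were taken by name, with earlier results of these data known, namely the receptors Tlr3, Tlr7, Tlr8, Tlr9 and Tlr13, the chaperone Unc93b1, the adaptor Myd88, the kinases Irak1 and Irak4 and the ubiquitin ligase Traf6. They are 10 of the 24957 genes in the deposited tables, and all 10 reached the filter on low values (1 RPKM, a read count scaled to transcript length and library size, in 3 or more libraries of spleen or 4 or more of lymph node). In spleen, Tlr8 reached it only through the imiquimod libraries, the group in which it was high, so its place in the counts of members is no support for them.

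The study asked how the loss of PAD2 or PAD4, enzymes that convert arginine to citrulline in proteins, affects mice given imiquimod, a small molecule that activates TLR7 and induces lupus-like disease. The 18 spleen libraries formed 6 groups of 3, one for each genotype with imiquimod and one for each genotype labelled control or naive. The 12 lymph node libraries were all from imiquimod-treated mice, 4 for each genotype, so the response to imiquimod could not be examined in that organ. The labels give no age or dose, and the extraction protocol describes all organs as coming from imiquimod-treated mice, although 9 spleens carry the control label. Nothing in the labels says that replicates were separate animals, so p-values measure the spread between these libraries, which may be technical.

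The labels were checked against marker genes before the members were examined. Padi2 was at 0.468 to 1.2 RPKM in Pad2-/- spleens and at 4.74 to 10.5 RPKM in WT spleens, and at 0.425 to 1.01 RPKM in Pad2-/- lymph nodes and 5.18 to 5.77 RPKM in WT lymph nodes. Padi4 was at most 0.259 RPKM in Pad4-/- spleens and at least 1.202 RPKM in WT spleens. In the lymph node libraries labelled Pad4-/-, Padi4 was 0.0958, 0.131 and 0.607 RPKM in replicates 1 to 3, against 0.679 to 1.05 RPKM in WT, and in replicate 4 it was higher than in any WT library, so replicates 3 and 4 went against their label. They are called libraries labelled Pad4-/- throughout, and the members' differences in lymph node are also given without them. Glycam1, a product of the high endothelial venules of lymph nodes, was at 415 to 2286 RPKM in lymph node libraries and at most 0.0798 RPKM in spleen libraries. Xist was expressed and the Y-linked Ddx3y was at most 0.0257 RPKM in all 30 libraries, and the members Tlr7, Tlr8, Tlr13 and Irak1 are X-linked.

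Endosomal Toll-like receptors read nucleic acids that reach the endosome. TLR7 binds single-stranded RNA and small molecules such as imiquimod, TLR9 binds unmethylated CpG DNA, TLR3 binds double-stranded RNA, and TLR13, a receptor of mice that humans lack, binds a stretch of bacterial ribosomal RNA. TLR8 senses RNA fragments in human myeloid cells, and its gene lies next to Tlr7. UNC93B1 carries these receptors out of the endoplasmic reticulum. TLR7, TLR8, TLR9 and TLR13 signal through MYD88, on which IRAK4 and IRAK1 assemble before they engage TRAF6, whereas TLR3 uses TRIF. In the spleen, B cells and plasmacytoid dendritic cells are known for TLR7 and TLR9, and monocytes and macrophages for TLR8 and TLR13.

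On the GRCm38.p6 assembly (the submitters' processing notes name mm10, of which this is a patch release), Tlr7 and Tlr8 are neighbours on chromosome X, at 167303380 to 167330574 and 167241123 to 167264329, 39050 bp apart. Tlr13 lies elsewhere on chromosome X (106143275 to 106160493), as does Irak1 (74013914 to 74023921), whose span overlaps the microRNA genes Mir5132 and Mir718. Tlr9 lies on chromosome 9 (106222598 to 106226876) and so does Myd88 (119335934 to 119340018). Tlr3 is on chromosome 8 (45395665 to 45411075), Unc93b1 on chromosome 19 (3935158 to 3949340), Irak4 on chromosome 15 (94543613 to 94568317) and Traf6 on chromosome 2 (101678420 to 101701668).

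Sequences upstream of the start site were matched in the RefSeq table (GRCm38.p6) for 8 of the 10 members. Tlr7 and Unc93b1 are named only. The 250 bases before the start site follow, 5′ to 3′ on the gene's strand, for the matched members that rose after imiquimod (Tlr8, Tlr13 and Myd88) and for the receptors that fell (Tlr9 and Tlr3). Capitals mark GAGGAA, the core of PU.1-type elements, in Tlr8 (as its complement TTCCTC), Tlr13 and Tlr9. In Myd88 they mark GAAANNGAAA, an interferon-stimulated response element, which also holds the half-site, and in Tlr3 they mark AANNGAAA, an interferon regulatory factor half-site (read on the opposite strand as TTTCACTT).
Tlr8, chrX:167264330-167264579, minus strand: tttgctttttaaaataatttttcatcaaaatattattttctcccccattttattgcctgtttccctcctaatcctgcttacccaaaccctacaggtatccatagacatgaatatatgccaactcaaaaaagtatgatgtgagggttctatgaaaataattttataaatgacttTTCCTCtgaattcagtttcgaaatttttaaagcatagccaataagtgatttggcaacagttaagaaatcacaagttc
Tlr13, chrX:106143025-106143274, plus strand: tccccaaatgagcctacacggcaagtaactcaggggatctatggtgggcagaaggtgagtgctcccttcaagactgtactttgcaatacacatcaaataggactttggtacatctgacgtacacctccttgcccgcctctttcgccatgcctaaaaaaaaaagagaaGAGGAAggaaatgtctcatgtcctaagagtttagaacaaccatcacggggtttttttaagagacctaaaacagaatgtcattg
Myd88, chr9:119340019-119340268, minus strand: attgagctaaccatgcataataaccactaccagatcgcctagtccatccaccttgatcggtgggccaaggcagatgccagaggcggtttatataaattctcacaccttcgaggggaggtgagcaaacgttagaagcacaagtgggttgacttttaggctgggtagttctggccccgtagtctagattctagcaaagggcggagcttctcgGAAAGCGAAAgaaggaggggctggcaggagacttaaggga
Tlr9, chr9:106222348-106222597, plus strand: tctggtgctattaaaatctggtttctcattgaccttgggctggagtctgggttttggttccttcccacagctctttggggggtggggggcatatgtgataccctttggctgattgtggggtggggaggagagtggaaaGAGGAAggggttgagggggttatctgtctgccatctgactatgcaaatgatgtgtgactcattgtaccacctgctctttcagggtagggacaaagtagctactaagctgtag
Tlr3, chr8:45410381-45410630, minus strand: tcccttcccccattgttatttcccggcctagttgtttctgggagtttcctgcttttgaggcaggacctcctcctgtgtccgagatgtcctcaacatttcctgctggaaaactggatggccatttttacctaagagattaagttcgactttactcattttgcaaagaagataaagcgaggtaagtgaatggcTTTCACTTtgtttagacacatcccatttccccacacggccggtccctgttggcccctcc

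Among 27025 promoters of the same length, searched on both strands, GAGGAA occurred in 23.1%, AANNGAAA in 21.6% and GAAANNGAAA in 3.04%. The GAGGAA match lay 77 to 72 bases before the Tlr8 start, 83 to 78 before the Tlr13 start and 112 to 107 before the Tlr9 start, and Traf6 held GAGGAA at 2 places. It was thus in promoters of members that rose and of members that fell. The Myd88 match lay 40 to 31 bases before the start, and the Tlr3 half-site 59 to 52 bases before it. The annotated start used for Tlr3 lies inside the gene's annotated span. These matches describe the letters of each window and say nothing of binding.

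Imiquimod spleens held more Tlr8, Tlr13, Myd88 and Tlr7 transcript and less Tlr3, Tlr9 and Traf6 transcript than control spleens, in every genotype. In limma's test with Benjamini-Hochberg adjustment over 11982 genes, 8 of the 10 members passed an adjusted p of 0.05 in WT (4 rose and 4 fell), against 73.5% of all genes tested (40.3% rose and 33.2% fell). In Pad2-/- 9 members passed (4 rose and 5 fell), against 73% of all genes (36.3% and 36.7%), and in Pad4-/- 8 passed (4 rose and 4 fell), against 70% (33.9% and 36.1%), so the members' counts are near the background and the size of each change is the more specific description. The median log2 change of the members was 0.064 in WT against 0.065 over all genes, -0.077 against -0.02 in Pad2-/- and -0.133 against -0.037 in Pad4-/-. The share of all genes whose treatments do not overlap was not determined, so statements below that libraries do not overlap only describe each member. Log2 fold changes are differences of log2(RPKM + 0.5), so they are too small for genes at low levels, and are given with their standard error (3 libraries a group).

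**Figure D1:**
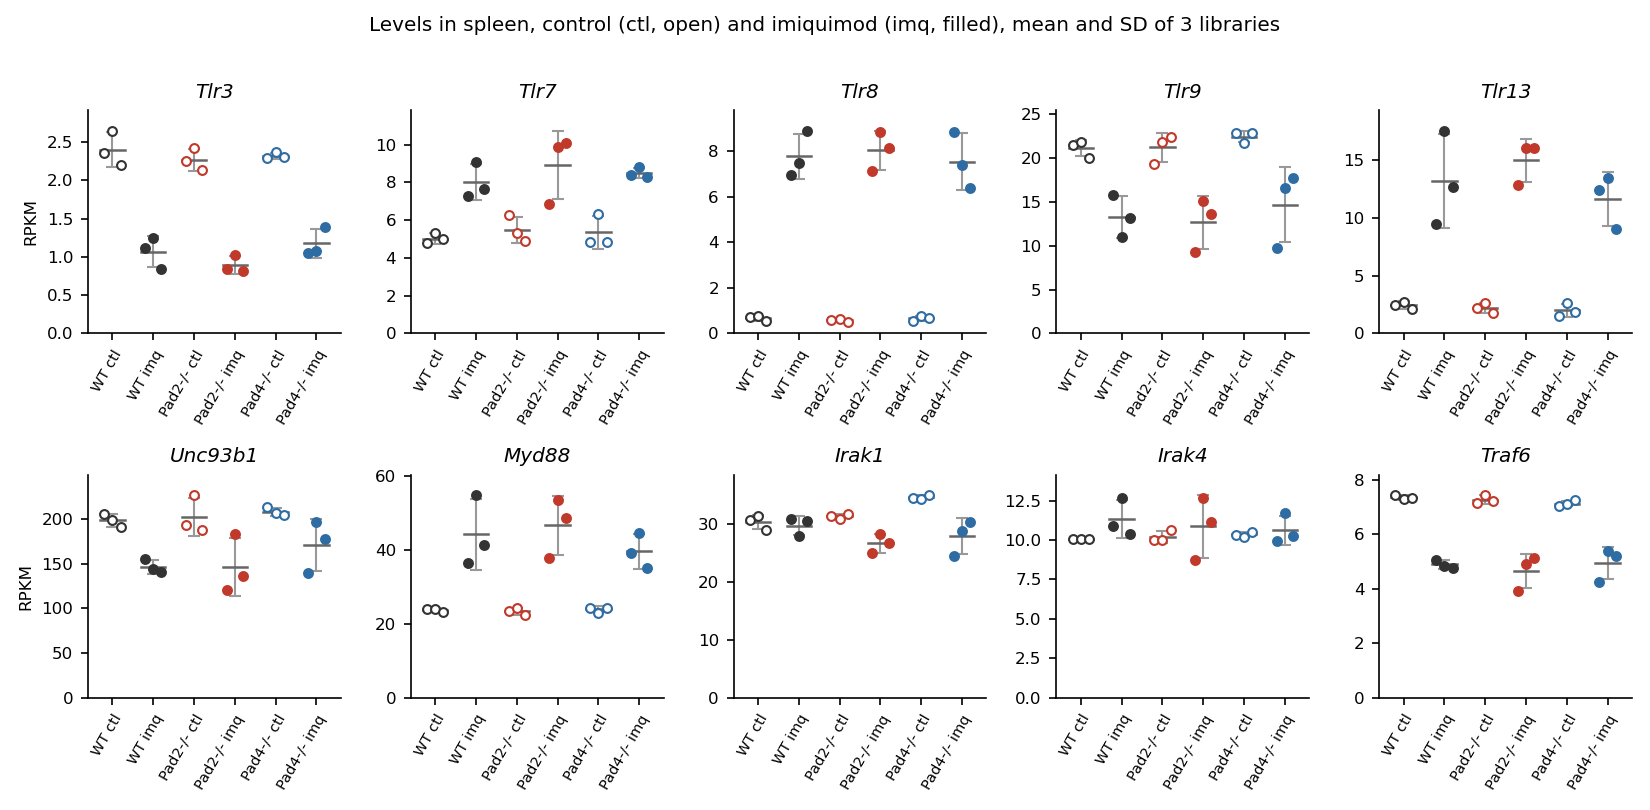
Levels of the 10 genes in spleen, in RPKM, by genotype and treatment. Each point is 1 library (open, control; filled, imiquimod), with the mean and SD of 3 libraries. Control libraries of Tlr8 sit between 0.501 and 0.742 RPKM and imiquimod libraries between 6.39 and 8.86 RPKM, whereas Irak4 overlaps between treatments in both knockouts.

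Tlr8 changed most. In WT it was at 0.695, 0.741 and 0.542 RPKM in control spleens and at 6.95, 7.49 and 8.86 RPKM in imiquimod spleens. In Pad2-/- the control values were 0.580, 0.628 and 0.501 RPKM and the imiquimod values 7.11, 8.83 and 8.15 RPKM. In Pad4-/- the control values were 0.535, 0.742 and 0.691 RPKM and the imiquimod values 8.85, 7.37 and 6.39 RPKM. Every imiquimod library lay above every control library, with none near the other group. The ratio of mean RPKM was 11.8 in WT, 14.1 in Pad2-/- and 11.5 in Pad4-/-. On the log2 scale the difference in Tlr8 was 2.83 ± 0.13 in WT, 2.99 ± 0.13 in Pad2-/- and 2.79 ± 0.13 in Pad4-/-. Since the filter kept Tlr8 through the group where it was high, these are given as a description. With no filter on low values Tlr8 was past the threshold in limma's test in all 3 genotypes. In WT, the absolute change of Tlr8 was larger than that of 97.6% of the genes tested. Tlr8 is in that set only through the imiquimod libraries, so this rank is also only a description.

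Tlr13 followed with a smaller rise and a wider spread. In WT it was at 2.48, 2.75 and 2.12 RPKM in control spleens and at 9.47, 17.6 and 12.6 RPKM in imiquimod spleens. In Pad2-/- it was at 2.18, 2.63 and 1.72 RPKM in control and at 12.9, 16.02 and 16.1 RPKM after imiquimod. In Pad4-/- it was at 1.51, 2.59 and 1.84 RPKM in control and at 12.4, 13.5 and 9.003 RPKM after imiquimod. The groups did not overlap in any genotype, and the imiquimod libraries were spread most in WT. The ratios of mean RPKM were 5.39, 6.89 and 5.88 in WT, Pad2-/- and Pad4-/-. The corresponding log2 fold changes of Tlr13 were 2.18 ± 0.21 (adjusted p = 3.16e-07, limma), 2.54 ± 0.21 and 2.29 ± 0.21.

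Tlr7, the receptor for the agonist itself, rose less than its neighbour. WT control spleens were at 4.78, 5.31 and 4.98 RPKM of Tlr7 and WT imiquimod spleens at 7.30, 9.10 and 7.66 RPKM. Pad2-/- spleens were at 6.26, 5.31 and 4.87 RPKM in control and at 6.86, 9.87 and 10.1 RPKM after imiquimod. Pad4-/- spleens were at 4.83, 6.35 and 4.87 RPKM in control and at 8.37, 8.81 and 8.29 RPKM after imiquimod. The treatments did not overlap within a genotype, but replicate 1 of the Pad2-/- imiquimod group lay close to the highest control of that genotype. The ratio of mean RPKM was 1.60 in WT, 1.63 in Pad2-/- and 1.59 in Pad4-/-. The log2 fold change of Tlr7 was 0.62 ± 0.14 in WT (adjusted p = 0.000841, limma), 0.65 ± 0.14 in Pad2-/- and 0.63 ± 0.14 in Pad4-/-. Tlr7 rose while the B cell and plasmacytoid dendritic cell sums in WT, given below, fell and the monocyte and macrophage sum rose. The part of these cells in the change of Tlr7 was not tested.

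Tlr9, the DNA receptor, was the most abundant of the 5 receptors in control spleens and fell. WT control values were 21.5, 21.8 and 20.1 RPKM and WT imiquimod values 15.8, 11.04 and 13.1 RPKM. Pad2-/- control values were 19.4, 21.9 and 22.5 RPKM and imiquimod values 9.29, 15.1 and 13.6 RPKM. Pad4-/- control values were 22.8, 21.7 and 22.9 RPKM and imiquimod values 9.76, 16.6 and 17.7 RPKM. Control libraries lay close together, while imiquimod libraries were spread, and replicate 1 of both knockouts was low. The log2 fold change of Tlr9 was -0.66 ± 0.19 in WT (adjusted p = 0.00655, limma), -0.75 ± 0.19 in Pad2-/- (adjusted p = 0.00284) and -0.64 ± 0.19 in Pad4-/- (adjusted p = 0.00855). Without replicate 1 of the Pad4-/- imiquimod group the Pad4-/- change was -0.38, with an adjusted p of 0.0554.

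The fall in Tlr9 came with lower B cell markers. All 8 of the 8 B cell markers fell in WT, and their summed level was 2636 to 3052 RPKM in control and 838 to 1322 RPKM after imiquimod. In Pad2-/- the sums were 2557 to 2834 RPKM and 606 to 1270 RPKM, and in Pad4-/- 2641 to 2787 RPKM and 1052 to 1714 RPKM. In each genotype the imiquimod library with the lowest Tlr9 value also had the lowest B cell sum (838 RPKM in WT, 606 in Pad2-/- and 1052 in Pad4-/-). Plasmacytoid dendritic cell markers summed to 180 to 198 RPKM in WT control and 80.0 to 127 RPKM in WT imiquimod spleens, with 2 of 8 rising and 6 falling. That sum mainly follows Spib, which averaged 145 RPKM of a mean sum of 190 RPKM in WT control. Siglech was at 6.98 to 7.95 RPKM in WT control and at 2.11 to 3.44 RPKM in WT imiquimod spleens. No defining marker of these cells was at 0. Marker counts in WT spleen, here and below, stand beside 40.3% of all genes rising and 33.2% falling. The part of cell composition in the change of Tlr9 was not tested, and in whole organs fewer cells of a type and less RNA per cell cannot be told apart.

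The rises in Tlr8 and Tlr13 came with higher myeloid markers. All 10 monocyte and macrophage markers rose in WT, from a sum of 362 to 428 RPKM in control to 1366 to 5249 RPKM after imiquimod. In Pad2-/- that sum went from 420 to 613 RPKM to 3042 to 3817 RPKM, and in Pad4-/- from 268 to 316 RPKM to 1424 to 2847 RPKM. In WT the same library, replicate 2, had the highest monocyte and macrophage sum and the highest Tlr13 value, while the lowest values of both were in replicate 1. Tlr8 was instead highest in WT replicate 3, at 8.86 RPKM. Libraries are matched in this way for WT only. The sum depends largely on abundant members, as Lyz2 averaged 270 RPKM of a mean sum of 386 RPKM in WT control. In WT imiquimod spleens Csf1r was at 73.8 to 97.7 RPKM and Adgre1 at 18.98 to 24.4 RPKM, a narrower spread than that of the sum. The match is thus of the sum and was not examined marker by marker. All 8 neutrophil markers rose in WT, from a sum of 704 to 1171 RPKM to 4651 to 22780 RPKM, and all 7 erythroid markers rose as well, from 33.2 to 44.0 RPKM to 282 to 1122 RPKM. The part of these cells in the changes of Tlr8 and Tlr13 was not tested.

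Tlr3 was lower in each imiquimod library than in any control library. It was at 2.36, 2.65 and 2.20 RPKM in WT control and at 1.11, 1.24 and 0.843 RPKM in WT imiquimod spleens. In Pad2-/- it was at 2.26, 2.42 and 2.13 RPKM and then at 0.841, 1.03 and 0.817 RPKM, and in Pad4-/- at 2.29, 2.37 and 2.30 RPKM and then at 1.05, 1.08 and 1.39 RPKM. The ratio of mean RPKM was 0.443 in WT, 0.394 in Pad2-/- and 0.506 in Pad4-/-. On the log2 scale the change of Tlr3 was -0.90 ± 0.12 in WT (adjusted p = 5.11e-06, limma), -0.99 ± 0.12 in Pad2-/- and -0.76 ± 0.12 in Pad4-/-. Marginal zone B cell markers, of which 4 of 6 fell and 1 rose in WT, summed to 375 to 383 RPKM in WT control and 117 to 147 RPKM in WT imiquimod spleens. Conventional dendritic cell markers summed to 68.8 to 75.9 RPKM in WT control and 56.8 to 86.3 RPKM in WT imiquimod spleens, which overlapped. The part of either cell type in the change of Tlr3 was not tested.

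The order of receptor levels changed with imiquimod. In WT control spleens the mean levels were 21.1 ± 0.93 RPKM for Tlr9, 5.02 ± 0.27 for Tlr7, 2.45 ± 0.32 for Tlr13, 2.40 ± 0.23 for Tlr3 and 0.659 ± 0.10 for Tlr8 (SD, n = 3). Tlr13 and Tlr3 overlapped and the other neighbours did not. In WT imiquimod spleens Tlr9 (13.3 ± 2.4 RPKM) and Tlr13 (13.2 ± 4.1) overlapped, Tlr7 (8.02 ± 0.95) and Tlr8 (7.77 ± 0.99) overlapped, and Tlr3 (1.07 ± 0.20) was lowest. As a share of the summed RPKM of the 5 receptors, a quantity chosen after the values were seen, Tlr9 was 66.7% ± 1.1 of the WT control sum and 31.03% ± 7.6 of the WT imiquimod sum. The share of Tlr13 went from 7.72% to 30.2% and that of Tlr8 from 2.07% to 17.9%, while Tlr7 was 15.9% and 18.4%. The sum itself was 31.7 ± 1.7 RPKM in WT control and 43.4 ± 2.9 RPKM in WT imiquimod spleens. In Pad2-/- the share of Tlr9 was 66.9% in control and 27.6% after imiquimod, where Tlr13 held 33.1%. In Pad4-/- the share of Tlr9 was 68.6% and 33.5%, with Tlr13 at 26.7% after imiquimod.

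**Figure D2:**
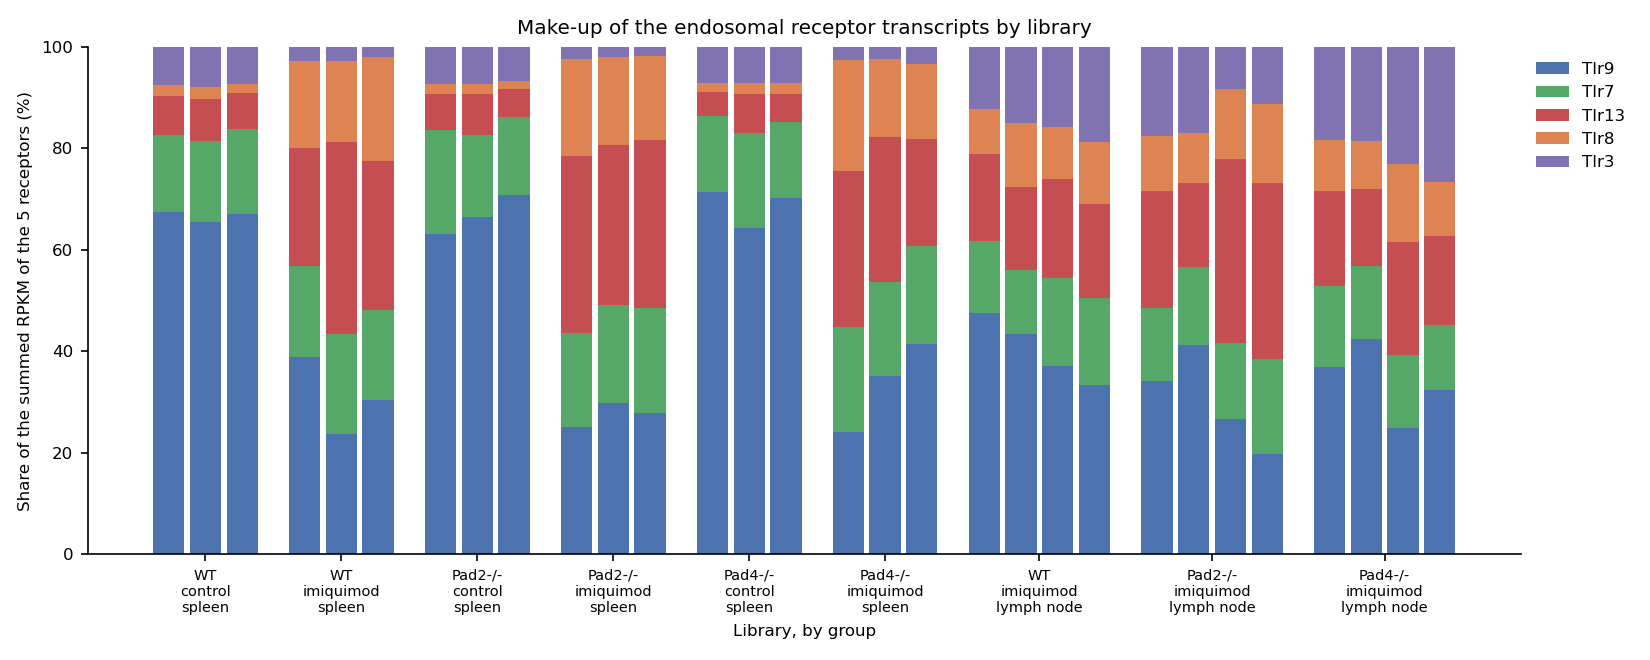
Share of each receptor in the summed RPKM of Tlr3, Tlr7, Tlr8, Tlr9 and Tlr13 in each library, by group, in percent. In WT spleen the mean share of Tlr9 falls from 66.7% in control to 31.03% in imiquimod libraries, and that of Tlr13 reaches 30.2%.

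Ratios between receptors were taken within each library, where they do not depend on its scaling beyond the pseudocount of 0.5. The log2 ratio of Tlr7 to Tlr9 was -1.94 ± 0.22 over 9 control spleens and -0.63 ± 0.35 over 9 imiquimod spleens (SD). The difference was 1.32. Tlr7 rose and Tlr9 fell, and the pair was chosen with earlier results of these data known, so no test is drawn from it. The log2 ratio of Tlr8 to Tlr7 was -2.36 ± 0.14 in control and -0.12 ± 0.21 in imiquimod spleens, a difference of 2.24, given likewise as a description. Control and imiquimod libraries did not overlap in any of the 3 genotypes for either ratio.

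**Figure D3:**
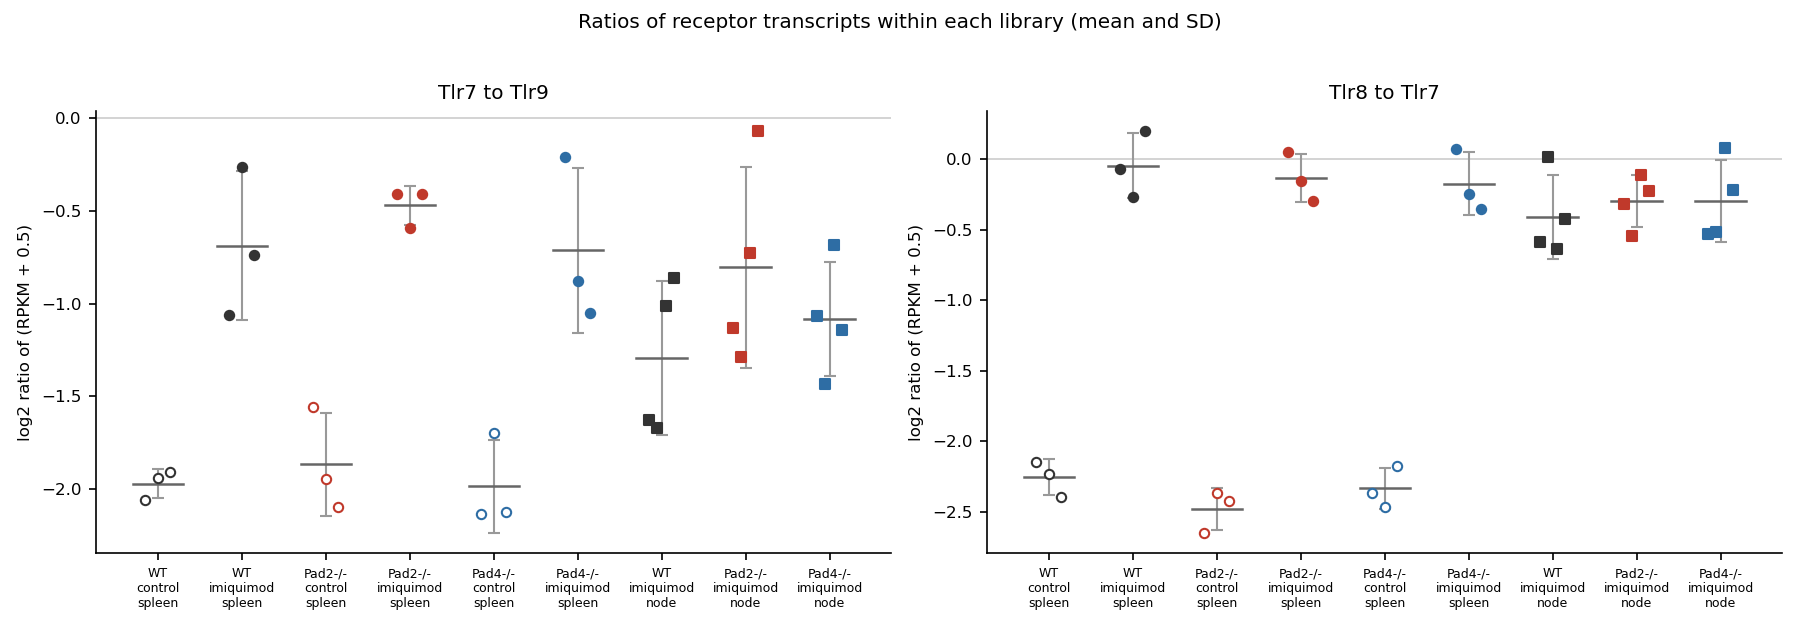
Log2 ratio of Tlr7 to Tlr9 (left) and of Tlr8 to Tlr7 (right) in each library, from RPKM + 0.5, with the mean and SD of each group; open points are control spleens, filled points imiquimod spleens and squares imiquimod lymph nodes. Spleen ratios rise by 1.32 and 2.24 on average with imiquimod, and lymph node groups overlap.

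Unc93b1, the chaperone, was the most abundant member in every group of both organs. It was at 206, 199 and 191 RPKM in WT control and at 155, 144 and 141 RPKM in WT imiquimod spleens. Pad2-/- values were 193, 227 and 188 RPKM and then 121, 183 and 136 RPKM, and Pad4-/- values were 213, 207 and 204 RPKM and then 139, 197 and 177 RPKM. Imiquimod libraries lay below the controls of their genotype. The change passed the test in WT (log2 -0.44 ± 0.14, adjusted p = 0.00943, limma) and Pad2-/- (-0.48 ± 0.14, adjusted p = 0.00503), and Unc93b1 in Pad4-/- was at -0.30 ± 0.14 with an adjusted p of 0.0645. The response of Unc93b1 in Pad4-/- minus that in WT was 0.14 (95% interval -0.27 to 0.55), so the genotypes were not shown to differ. Under quantile normalization the log2 change of Unc93b1 was -0.982 in WT and -0.751 in Pad4-/-, past the threshold in both. Per unit of summed receptor RPKM, Unc93b1 was 6.28 in WT control and 3.40 in WT imiquimod spleens.

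Among the signalling members, Myd88 rose, Traf6 fell, and the kinases moved little. Myd88, the shared adaptor, was at 23.9, 23.98 and 23.1 RPKM in WT control and at 36.3, 54.8 and 41.2 RPKM in WT imiquimod spleens. Knockout controls were at 22.2 to 24.4 RPKM, Pad2-/- imiquimod spleens at 37.7, 53.4 and 48.4 RPKM, and Pad4-/- imiquimod spleens at 39.1, 44.4 and 35.0 RPKM. No imiquimod library reached down to any control. Myd88 had a log2 fold change of 0.86 ± 0.14 in WT (adjusted p = 3.92e-05, limma), 0.97 ± 0.14 in Pad2-/- and 0.71 ± 0.14 in Pad4-/-. The highest WT value was in replicate 2, the library with the highest monocyte and macrophage sum, which depends largely on abundant members such as Lyz2. The part of these cells in the change of Myd88 was not tested.

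Traf6, the ubiquitin ligase downstream of the kinases, was uniform in controls and lower after imiquimod. WT control spleens were at 7.44, 7.28 and 7.35 RPKM and WT imiquimod spleens at 5.07, 4.83 and 4.78 RPKM. All 9 control libraries lay between 7.05 and 7.45 RPKM and all 9 imiquimod libraries between 3.92 and 5.37 RPKM. For Traf6 the log2 fold change was -0.54 ± 0.09 in WT (adjusted p = 7.45e-05, limma), -0.60 ± 0.09 in Pad2-/- and -0.49 ± 0.09 in Pad4-/-. T cell markers, all 8 of which fell in WT beside 33.2% of all genes, summed to 530 to 567 RPKM in WT control and 279 to 369 RPKM in WT imiquimod spleens. Their part in the change of Traf6 was not tested.

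Irak1, a kinase recruited to MYD88, passed the test in the knockouts and not in WT. It was at 30.6, 31.5 and 29.1 RPKM in WT control and at 30.8, 28.0 and 30.5 RPKM in WT imiquimod spleens, which overlapped. Pad2-/- values were 31.4, 30.9 and 31.7 RPKM and then 25.1, 28.3 and 26.8 RPKM, and Pad4-/- values were 34.5, 34.4 and 35.1 RPKM and then 24.4, 28.8 and 30.5 RPKM. The log2 fold change of Irak1 was -0.03 ± 0.08 in WT (adjusted p = 0.727, limma), -0.23 ± 0.08 in Pad2-/- (adjusted p = 0.0141) and -0.31 ± 0.08 in Pad4-/- (adjusted p = 0.00189). The difference between the Pad4-/- and WT responses of Irak1 was -0.28 (95% interval -0.51 to -0.05), with an adjusted p of 0.235 in limma, and that between Pad2-/- and WT was -0.20 (-0.43 to 0.03), so neither was shown to differ. Without replicate 1 of the Pad2-/- imiquimod group the Pad2-/- change was -0.18, with an adjusted p of 0.0619. Quantile normalization, which lowered the median of all genes by 0.195 on the log2 scale in WT, gave Irak1 in WT as -0.28 with an adjusted p of 0.00085.

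Irak4, the kinase that first binds MYD88, was at 10.1 ± 0.012 RPKM in WT control and 11.3 ± 1.2 RPKM in WT imiquimod spleens (SD, n = 3). Its log2 fold changes were 0.16 ± 0.11 in WT, 0.07 ± 0.11 in Pad2-/- and 0.03 ± 0.11 in Pad4-/-, and the 95% interval of Irak4 in WT reached from -0.07 to 0.39. Irak4 passed in no genotype, but in Pad2-/- it passed under array weights (0.14, adjusted p = 0.00132, limma) and without replicate 1 of the imiquimod group (0.214, adjusted p = 0.0458).

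**Figure D4:**
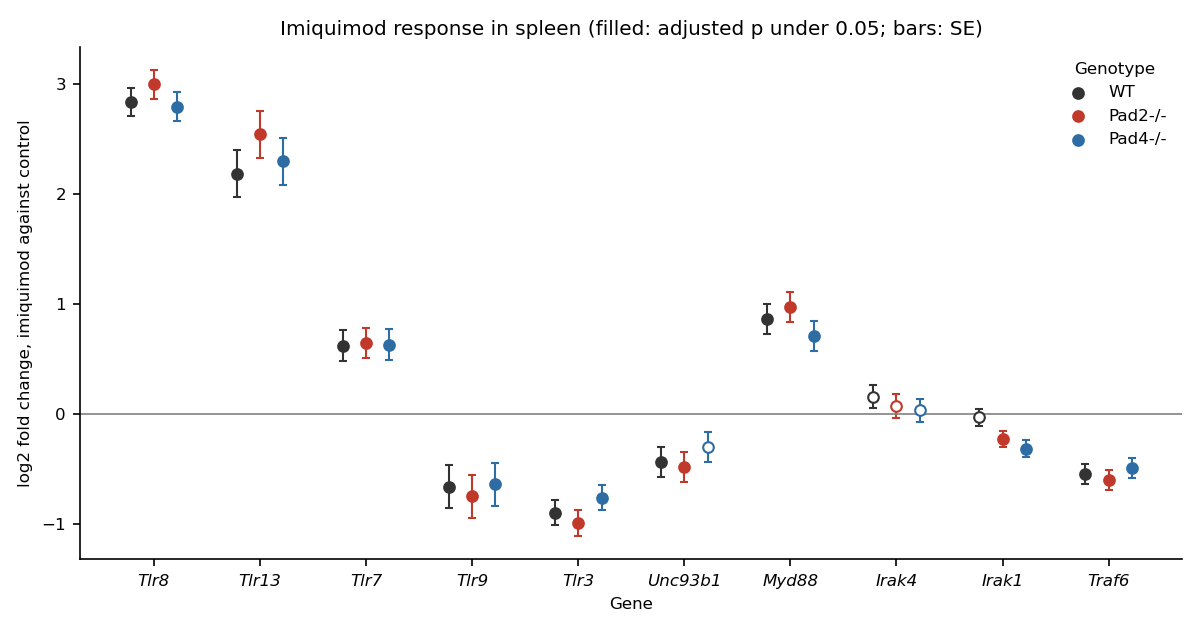
Log2 fold change of the 10 genes in imiquimod against control spleens, on the log2(RPKM + 0.5) scale, for each genotype. Bars are the standard error from limma, and filled points had an adjusted p under 0.05. Tlr8 lies at 2.83 in WT and Tlr3 at -0.90.

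Other genes of the pathway, in 6 lists drawn up by function, moved in both directions. Of 9 measured cell-surface and other Toll-like receptor genes, 3 rose and 4 fell in WT, which is near the background share. Cd14 (log2 2.77) and Ly96 (1.24), co-receptors for lipopolysaccharide, rose with Tlr2 (0.56), whereas Tlr1 (-1.39), Tlr6 (-0.77), Cd180 (-1.30) and its partner Ly86 (-0.50) fell. Of 24 genes of receptor folding, trafficking and endosomal processing, 13 rose and 6 fell in WT (median log2 change 0.277), 13 rose and 6 fell in Pad2-/-, and 13 rose and 7 fell in Pad4-/-. Together that is 19 of 24 in WT, beside 73.5% of all genes (40.3% rose and 33.2% fell), with 36.3% and 36.7% of all genes in Pad2-/- and 33.9% and 36.1% in Pad4-/-. Among them Ctsb, a lysosomal protease, went from 50.4 to 174 RPKM, Slc15a3, an endolysosomal peptide transporter, from 4.21 to 13.5 RPKM, and Pld4, an exonuclease that degrades single-stranded nucleic acids in endolysosomes, from 50.1 to 126 RPKM. Slc29a3, a lysosomal nucleoside transporter, went from 8.51 to 5.45 RPKM (log2 -0.60).

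The remaining lists are to be read against the same WT background, in which 40.3% of all genes rose and 33.2% fell. Of 22 proximal adaptor, kinase and ubiquitin genes, 7 rose and 9 fell in WT. Ticam2, an adaptor of TLR4, rose (log2 1.5), and so did Ube2n (0.74), the ubiquitin-conjugating enzyme that works with TRAF6. Peli1 (-1.23), Ikbkb (-1.09) and Irak2 (-0.82) fell. Of 17 negative regulators 5 rose and 7 fell, with Dusp1 at 1.43 and Zc3h12a at -1.16. Of 15 transcription factors 4 rose and 8 fell, with Irf7, an interferon regulatory factor activated downstream of TLR7 and TLR9, at 0.996 and Rel, an NF-kB subunit, at -1.44. Handling stress markers, a list that shares Dusp1, Fos, Jun and Atf3 with these, summed to 28.7 to 31.97 RPKM in WT control and 59.3 to 85.9 RPKM in WT imiquimod spleens, with 5 of 7 rising, and their part was not tested. Of 12 measured cytokine and interferon products 7 rose and 4 fell (median 1.283). Tnfsf13b, which encodes the B cell survival factor BAFF, went from 0.796 to 5.19 RPKM, Cxcl10 from 0.671 to 4.85 RPKM and Il10 from 0.122 to 2.104 RPKM, whereas Cd40 went from 53.5 to 18.8 RPKM and Tnf had a log2 change of -0.41.

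No member passed the test of a knockout against WT in spleen. In limma's test 0 of 10 passed in Pad2-/- against WT in control spleens (17 of all genes, 0.142%) and in imiquimod spleens (58 genes, 0.484%). Likewise 0 of 10 passed in Pad4-/- against WT in control spleens (18 genes, 0.15%) and in imiquimod spleens (871 genes, 7.27%). At an unadjusted p of 0.05 the only member was Irak1 in Pad4-/- against WT control spleens, at 0.19 ± 0.08 (adjusted p = 0.724 in limma). Irak1 passed there under array weights (0.182, adjusted p = 0.00644) and with only the compared groups in the fit (0.187, adjusted p = 0.0289), and in Pad2-/- against WT imiquimod spleens under array weights (-0.17, adjusted p = 0.0436). In imiquimod spleens the lowest and highest member differences from WT in Pad2-/- were -0.16 for Tlr3 and 0.21 for Tlr13, with 95% intervals of -0.41 to 0.08 and -0.24 to 0.66. In Pad4-/- imiquimod spleens the difference from WT was 0.08 for Tlr7 (-0.21 to 0.38) and 0.21 for Unc93b1 (-0.08 to 0.50).

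The response to imiquimod was compared between genotypes directly. No member passed for Pad2-/- minus WT, where 4 of all genes passed (0.0334%), or for Pad4-/- minus WT, where 8 passed (0.0668%), and Irak1, given above, was the only member with an unadjusted p under 0.05. For Tlr7 the difference of the log2 responses was 0.02 in Pad2-/- (95% interval -0.39 to 0.44) and 0.01 in Pad4-/- (-0.41 to 0.43). For Tlr8 it was 0.16 (-0.23 to 0.55) and -0.04 (-0.43 to 0.34), for Tlr9 -0.09 (-0.67 to 0.50) and 0.02 (-0.57 to 0.60), and for Tlr13 0.36 (-0.28 to 1.0004) and 0.11 (-0.53 to 0.75). In the wider lists, the genes past limma's threshold in a knockout comparison in spleen were Ctsl (-0.59, adjusted p = 0.00762), Dusp1 (-0.76, adjusted p = 0.00906) and Ube2n (-0.25, adjusted p = 0.0378). All were lower in Pad4-/- imiquimod than in WT imiquimod spleens. The lists held 110 genes, not all of them measured, and 7.27% of all genes passed in that comparison. Dusp1, also a handling stress marker, was at -0.44 in Pad4-/- against WT control spleens (adjusted p = 0.543, limma).

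In lymph nodes of imiquimod-treated WT mice Unc93b1 was again highest at 132 ± 11 RPKM (SD, n = 4), followed by Myd88 (29.1 ± 0.76) and Irak1 (23.3 ± 2.0). Tlr9 was at 10.2 ± 3.0 RPKM, Irak4 at 7.41 ± 0.77 and Traf6 at 6.29 ± 0.46. The remaining receptors were close together, with Tlr13 at 4.42 ± 0.36 RPKM, Tlr3 at 3.76 ± 0.42, Tlr7 at 3.74 ± 0.19 and Tlr8 at 2.73 ± 0.57. Tlr9 made up 40.4% of the receptor sum of 24.8 RPKM, Tlr13 17.9%, Tlr3 15.4%, Tlr7 15.3% and Tlr8 11.02%. Lymph node and spleen tables were not tested against each other.

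**Figure D5:**
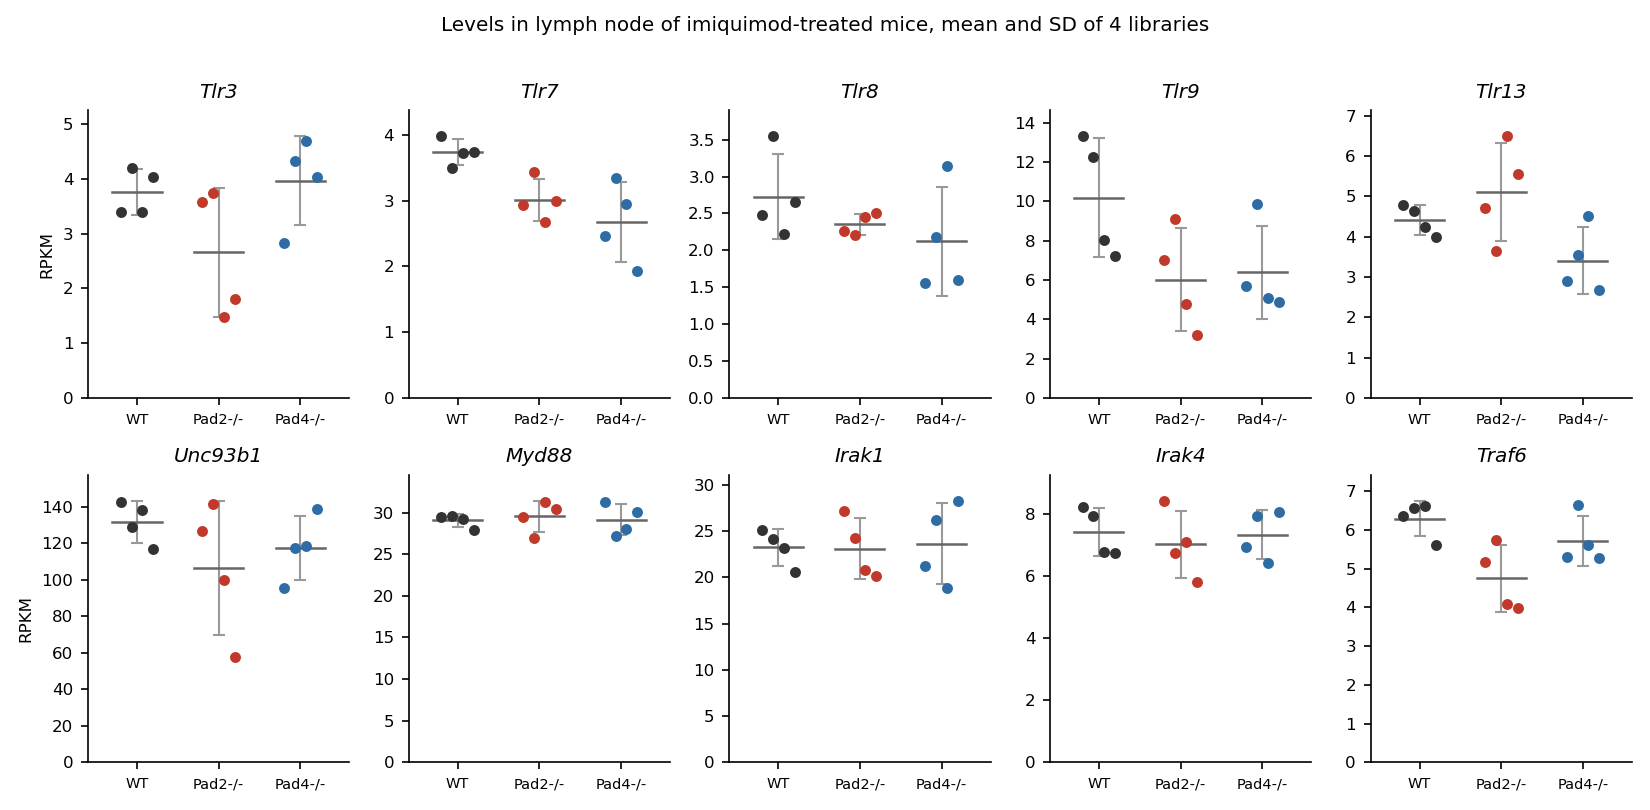
Levels of the 10 genes in imiquimod lymph nodes, in RPKM, by genotype. Each point is 1 library, with the mean and SD of 4 libraries. Tlr7 is at 3.50 to 3.98 RPKM in WT, 2.68 to 3.44 RPKM in Pad2-/- and 1.93 to 3.34 RPKM in the libraries labelled Pad4-/-, without passing the threshold. Myd88 stays between 27.0 and 31.3 RPKM throughout.

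No member passed the test in lymph node either. In limma's test 0 of 10 passed in Pad2-/- against WT, where 57 of 12285 genes passed (0.464%), and 0 of 10 in the libraries labelled Pad4-/- against WT, where 1 gene passed (0.00814%). At an unadjusted p under 0.05 there were 3 members in the first comparison (Traf6, Tlr9 and Tlr3) and 2 in the second (Tlr7 and Tlr9). The median difference of the members was -0.218 against -0.116 over all genes in Pad2-/-, and -0.153 against 0.002 in the libraries labelled Pad4-/-. Without replicates 3 and 4 of the libraries labelled Pad4-/-, 0 of 10 members passed, 1 had an unadjusted p under 0.05, and the median was -0.197 against 0.034 over all genes.

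Tlr7 had lower values in the Pad2-/- libraries and in the libraries labelled Pad4-/- than in WT, without passing the threshold. It was at 3.98, 3.50, 3.73 and 3.74 RPKM in WT, at 2.94, 3.44, 2.68 and 2.999 RPKM in Pad2-/- and at 2.46, 3.34, 2.96 and 1.93 RPKM in the libraries labelled Pad4-/-. All 8 of these libraries lay below the lowest WT value. The log2 difference from WT was -0.27 ± 0.14 in Pad2-/- (95% interval -0.58 to 0.04, adjusted p = 0.446 in limma) and -0.44 ± 0.14 in the libraries labelled Pad4-/- (-0.74 to -0.13, unadjusted p = 0.00884, adjusted p = 0.902). Without replicates 3 and 4 of the libraries labelled Pad4-/- that difference was -0.33 for Tlr7. Both comparisons share the WT libraries.

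Tlr9 varied within each group. It was at 13.3, 12.2, 8.04 and 7.20 RPKM in WT, at 7.02, 9.13, 4.77 and 3.18 RPKM in Pad2-/- and at 5.72, 9.87, 5.06 and 4.88 RPKM in the libraries labelled Pad4-/-. Replicates 3 and 4 were lower than replicates 1 and 2 in each group. The log2 difference from WT was -0.76 ± 0.29 in Pad2-/- (95% interval -1.39 to -0.13, adjusted p = 0.374 in limma) and -0.65 ± 0.29 in the libraries labelled Pad4-/- (-1.28 to -0.02, adjusted p = 0.9999), or -0.37 without replicates 3 and 4 of the libraries labelled Pad4-/-. B cell markers summed to 1015 to 1403 RPKM in WT, to 906, 1159, 722 and 526 RPKM in Pad2-/- and to 844 to 1140 RPKM in the libraries labelled Pad4-/-, and their part in the differences of Tlr9 was not tested.

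Tlr3 and Unc93b1 had low values in the same Pad2-/- lymph nodes. Tlr3 was at 3.39, 4.203, 3.40 and 4.03 RPKM in WT and at 3.58, 3.75, 1.48 and 1.81 RPKM in Pad2-/-. Unc93b1 was at 143, 129, 138 and 117 RPKM in WT and at 127, 142, 99.9 and 57.6 RPKM in Pad2-/-. Replicates 3 and 4 of Pad2-/- lay below all WT values for both genes, and replicates 1 and 2 lay within the WT range. The log2 difference was -0.51 ± 0.23 for Tlr3 (adjusted p = 0.415, limma) and -0.38 ± 0.22 for Unc93b1 (adjusted p = 0.472). Without replicate 4 of Pad2-/- the difference of Unc93b1 was -0.112. In a split chosen after the values were seen, and given without a test, replicates 3 and 4 alone gave -0.97 for Tlr3, -0.88 for Tlr9 and -0.74 for Unc93b1, whereas replicates 1 and 2 alone gave -0.04, -0.64 and -0.02. Neutrophil markers, 7 of 8 of which rose in Pad2-/- lymph nodes, summed to 3872, 792, 5694 and 5101 RPKM there and to 168 to 612 RPKM in WT. In that comparison 0.464% of all genes passed in either direction. The part of neutrophils in these values was not tested.

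The other members were closer. Traf6 was at 5.19, 5.75, 4.10 and 3.98 RPKM in Pad2-/- lymph nodes and at 5.62 to 6.61 RPKM in WT, a log2 difference of -0.38 ± 0.13 (unadjusted p = 0.0120, adjusted p = 0.328, limma). Tlr8 differed by -0.16 ± 0.18 and Tlr13 by 0.16 ± 0.17 in Pad2-/-, and by -0.32 ± 0.18 and -0.35 ± 0.17 in the libraries labelled Pad4-/- (-0.442 for Tlr8 and -0.405 for Tlr13 without their replicates 3 and 4). Myd88 differed from WT by 0.02 (95% interval -0.18 to 0.22) in Pad2-/- and by 0.00 (-0.20 to 0.21) in the libraries labelled Pad4-/- (0.006 without their replicates 3 and 4), the narrowest bounds among the members. The within-library log2 ratio of Tlr7 to Tlr9 was higher than in WT by 0.487 in Pad2-/- (exact permutation p = 0.2, unadjusted). In the libraries labelled Pad4-/- it was higher by 0.209 (exact permutation p = 0.457, unadjusted). Leaving out 1 library at a time gave 0.244 (without Pad2-/- replicate 4) to 0.648 for the first, and 0.076 (without replicate 3 of the libraries labelled Pad4-/-) to 0.353 (without WT replicate 4) for the second. The second was 0.098 without WT replicate 1, 0.083 without WT replicate 2 and 0.325 without replicate 2 of the libraries labelled Pad4-/-. With 4 libraries against 4 the smallest p possible is 0.0286. Without replicates 3 and 4 of the libraries labelled Pad4-/- the difference of the Tlr7 to Tlr9 ratio from WT was 0.041.

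Genes with the pattern most like each receptor across the 18 spleen libraries were ranked by the root mean square difference of their centred log2 values, over all genes tested. For Tlr8, whose own SD was 1.44, they were Hfe (0.145), Metrnl (0.158) and Adgre4 (0.174). For Tlr13, with an SD of 1.199, they were Igsf6 (0.157), Cd300a (0.171) and Ltbr (0.171). For Tlr7, with an SD of 0.352, they were Sat1 (0.113), Elmo2 (0.118) and Vav3 (0.12). The closest to Tlr9 were Rubcn (0.094), Fam76b (0.096) and Tmem184c (0.097), those to Tlr3 Synj2bp (0.107) and Serpini1 (0.11), and those to Unc93b1 Map2k1 (0.078) and Zfp27 (0.078). Across the 12 lymph node libraries the closest to Tlr9 were Cacna1e (0.165), Pik3ap1 (0.169) and Ssh1 (0.19). The spleen libraries share the treatment contrast, so these are descriptions without a test.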

How the data were processed

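Poly(A) RNA-seq libraries of 18 spleens and 12 lymph nodes were analysed from the RPKM tables deposited by the authors. Per the submitters' processing notes, bcl2fastq 1.17.1 and TopHat2 2.1.0 were used with mm10, and the tool that made the RPKM values is not given in the sources used here. RPKM are normalized, so read depth is unknown, and the values summed to 350314 to 506819 per spleen and 368211 to 468564 per lymph node library. No pair of libraries held identical values, and 0 sample columns were left unused.

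Here log2(RPKM + 0.5) was fitted with limma 3.58.1 (R 4.3.3, trended empirical Bayes), all groups of an organ in 1 fit, after a filter of 1 RPKM in 3 spleen or 4 lymph node libraries. P-values were adjusted by Benjamini-Hochberg over all genes tested, with a threshold of 0.05. Receptor ratios in lymph node were compared by exact two-sided permutation tests in Python 3.11.15, and intervals are 95%. The fit was tested on simulated data with known changes between Pad2-/- and WT imiquimod libraries. Changes of 0.5 on the log2 scale were recovered for 40.3% of changed genes in spleen and 20.9% in lymph node. Changes of 1 were recovered for 86.6% in both organs, and 12 of 160 and 9 of 147 calls were false. The simulated noise was normal and independent between genes, and 200 genes were changed, whereas 58 genes passed in the real spleen comparison and 57 in lymph node. The recovered shares can thus be higher than in the real data. Real differences near 0.5 can have been missed, and so can larger ones in genes that vary between libraries. For example, Tlr9 at -0.76 in Pad2-/- lymph nodes did not pass. The members, gene lists and ratios were chosen with earlier results of these data known. Text names all 10 members, up to 4 rising and 4 falling genes of each pathway list by smallest p, and the 3 genes most like each receptor and Unc93b1 (some shown). Alternatives covered the pseudocount, filter, scaling, weights, groups in the fit, replicate block and each library left out. Promoters came from RefSeq (GRCm38.p6), searched for motifs on both strands.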

Additional observations from a re-analysis of the deposited data

Results flagged for a closer look

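Tlr9 in the lymph node libraries labelled Pad4-/- had 1 value apart from the rest. Replicate 2 was at 9.87 RPKM, and the other 3 libraries were at 4.88 to 5.72 RPKM. Its gap to the nearest library was 0.832 of the range of the group, just above the critical value for 4 samples. The members and both receptor ratios were examined in 36 groups of 4 libraries in all, of which chance flags about 1 in 20, and this was the 1 flagged. Replicates 3 and 4, whose Padi4 level went against the label, are among the other libraries, and without them the group is too small for this comparison.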

How the results depend on the processing

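Counts of members past the threshold for imiquimod against control in spleen stayed within 1.5 times the reported counts under all alternatives run, including other pseudocounts, no filter, other scalings, array weights and each library left out. For the knockout comparisons 1 member passed in Pad4-/- against WT control spleens under array weights (Irak1, 0.182, adjusted p = 0.00644, limma) and also 1 with only the groups compared in the fit (Irak1, 0.187, adjusted p = 0.0289). In Pad2-/- against WT imiquimod spleens 1 passed under array weights (Irak1, -0.17, adjusted p = 0.0436). In Pad2-/- against WT lymph nodes the count of members past the threshold was 2 (Tlr3 and Tlr9) with replicates 3 and 4 alone. That split was chosen after the values were seen, so its count tests nothing and no conclusion is drawn from it. No difference that passed the threshold, as reported or under an alternative, changed sign. Of 116 log2 differences, 47 that did not pass changed sign under at least 1 alternative, the largest of them 0.173 in size as reported. The cause of these changes was not tested. The Tlr8 to Tlr7 ratio of the libraries labelled Pad4-/- minus WT was 0.112, -0.114 without their replicates 3 and 4, and -0.012 to 0.253 with each library left out in turn. Leaving out each library in turn gave 1.231 to 1.377 for Tlr7 to Tlr9 and 2.198 to 2.276 for Tlr8 to Tlr7 in spleen.

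Same-numbered spleen libraries correlated at -0.478 to 0.612 over 45 pairs (median 0.054), beside a median of -0.014 over 90 differently numbered pairs. Same-numbered lymph node libraries correlated at -0.301 to 0.394 over 12 pairs (median -0.006), beside a median of -0.04 over 36 others. These values do not settle whether the numbers pair libraries, and no pairing was used in the reported fits. With the replicate block the counts were 8, 9 and 9 for imiquimod in WT, Pad2-/- and Pad4-/- spleens and 0 in each knockout comparison, where Unc93b1 passed in Pad4-/- (-0.297, adjusted p = 0.0451). The spleen ratio differences under the block were 1.315 and 2.24. Quantile normalization moved the WT split of all genes called from 4823 higher and 3984 lower to 3868 and 5390, and gave Unc93b1 in Pad4-/- as -0.751. Pad4-/- against WT imiquimod spleens went from 189 higher and 682 lower to 429 and 415. The Tlr8 to Tlr7 difference in spleen was 2.767 with a pseudocount of 0.1 and 1.835 with 1. Read depth is unknown, which limits what low values such as those of Tlr8 in control spleens can show.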
